A study of Homo sapiens with 9 samples.

Results

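The regions described here are intergenic places in the genome of SK-N-MC cells that were listed as accessible with each of 2 hairpins against CHD4 and not with a control hairpin. SK-N-MC is an established Ewing sarcoma cell line. The groups were shCHD4#1 and shCHD4#2, both labelled as CHD4 knockdown, and shScramble, labelled as wild type, each with 3 biological replicates. All 9 samples carried a short hairpin RNA and received 100 ng/ml doxycycline for 48 h, the controls included, and every library held a small spike-in of Drosophila S2 cells. The assay was ATAC-seq, which tags open DNA with sequencing adapters through the Tn5 transposase. The data analysed here were the authors' 3 lists of accessible regions, 1 per group. Without regions that were over 20 kb wide or had a second authors' score below 0, these lists held 122456 regions with shCHD4#1, 82824 with shCHD4#2 and 85359 with shScramble on chromosomes 1 to 22 and X. The authors' p was at most 0.05 for 14673 regions with shCHD4#1, 10943 with shCHD4#2 and 10778 with shScramble. Regions that shared at least 1 bp were merged into 130417 places, of which 13115 (10.1%) held a region of both CHD4 hairpins and none of shScramble. Of these, 5530 overlapped neither a protein-coding gene nor the 1 kb beyond its ends. These 5530 gained intergenic regions covered 9.45 Mb.

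CHD4 is an ATPase of the NuRD complex, which joins nucleosome remodelling to histone deacetylation. NuRD is known for closing chromatin at enhancers and promoters and for restraining genes of other lineages. Intergenic DNA holds many enhancers as well as the starts of long non-coding RNAs (lncRNAs) and microRNAs. In Ewing sarcoma the EWSR1::FLI1 fusion binds many intergenic sites, and CHD4 has been studied there as a partner of the fusion.

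The regions were chosen by their presence in the 3 lists, so their presence in the CHD4 lists and their absence from the shScramble list are a description and were not tested. With a single list for each group, no replicate spread was available for any value below. Shares carry 95% Wilson intervals; these take in only the counting error and ignore that neighbours may depend on each other. Each list is filed under replicate 1 of its group and was taken to be the combined list of the group, which is an inference. Read depth is unknown, and the shCHD4#1 list was the longest. A region can appear in a list because more cells were open there or because each cell was more open, and these cannot be told apart.

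The gained intergenic regions reached the starts of some non-coding genes, and a few sequences are shown to make these places concrete. A region gained with both CHD4 hairpins contained the complete hairpin of 6 microRNA genes, and another 2 hairpins were touched in part. MicroRNA genes were overlapped by 8 gained intergenic regions (0.145%, interval 0.0733 to 0.285). Of intergenic regions in all 3 lists, 41 overlapped one (0.26%, 0.191 to 0.352). Of those listed with shScramble alone, 4 did (0.0617%, 0.024 to 0.158). The interval of the gained regions overlapped both of the others, so these shares do not set the gained regions apart. For 3 of the 6 complete hairpins, RefSeq (GRCh38.p14) gave mature sequences. These are printed here 5′ to 3′ with the seed, bases 2 to 8, in capitals. No seed is shared between them.
hsa-miR-193b-3p: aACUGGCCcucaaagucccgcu
hsa-miR-193b-5p: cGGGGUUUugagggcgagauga
hsa-miR-184: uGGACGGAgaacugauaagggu
hsa-miR-8071: cGGUGGACuggagugggugg

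MIR193B encodes a microRNA studied as a growth suppressor in several tumours (chr16:14303967-14304049, plus strand). It lay inside a gained region of 5220 bp (chromosome 16, 14302981 to 14308200), 36201 bp from MRTFB. That region was number 76629 in the shCHD4#1 list and number 62360 in the shCHD4#2 list, counted from the lowest authors' p, and the nearest shScramble region lay 870 bp away. MIR184, known from the lens, cornea and nervous system (chr15:79209788-79209871, plus strand), lay inside a region of 1310 bp. That region was better placed, at number 15907 with shCHD4#1 and 15563 with shCHD4#2, and stood 72611 bp from ANKRD34C. MIR8071-1 (chr14:105621116-105621180) lay in an 11480 bp region among the immunoglobulin heavy chain segments, number 22040 with shCHD4#1 and 79210 with shCHD4#2. The other whole hairpins were MIR1302-3, MIR4471 and MIR4487. MIR202 and MIR3180-4 were touched in part. MIR1302-3, MIR3180-4 and MIR8071-1 belong to families with near-identical copies, so reads there are uncertain in their placement. Thus MIR184 was the only one of the 6 whose region stood in the best 25% of both CHD4 lists.

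The starts of 3 lncRNA genes are shown because they lay in the best-ranked gained regions among lncRNAs with an approved symbol outside the major histocompatibility complex, a choice made after the ranks were seen. Each sequence holds 250 bases before the start and 50 after it, from RefSeq (GRCh38.p14) on the gene's strand, and the capitals mark CG dinucleotides. MIR9-1HG is at chr1:156421720-156422019 (minus strand), LINC01587 at chr4:5524319-5524618 (plus strand) and MIR210HG at chr11:568408-568707 (minus strand).
MIR9-1HG: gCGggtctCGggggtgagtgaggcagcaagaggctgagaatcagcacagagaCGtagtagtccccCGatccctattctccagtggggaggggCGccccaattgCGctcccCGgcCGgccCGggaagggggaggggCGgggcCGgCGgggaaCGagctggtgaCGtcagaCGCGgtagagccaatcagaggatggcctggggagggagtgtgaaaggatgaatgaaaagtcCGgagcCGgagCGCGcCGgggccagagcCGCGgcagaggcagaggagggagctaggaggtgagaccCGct
LINC01587: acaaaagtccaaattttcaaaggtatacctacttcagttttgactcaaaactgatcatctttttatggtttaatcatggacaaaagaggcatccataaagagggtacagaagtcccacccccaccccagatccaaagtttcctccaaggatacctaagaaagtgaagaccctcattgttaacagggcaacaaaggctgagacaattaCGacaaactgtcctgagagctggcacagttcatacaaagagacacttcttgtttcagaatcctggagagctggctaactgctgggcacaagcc
MIR210HG: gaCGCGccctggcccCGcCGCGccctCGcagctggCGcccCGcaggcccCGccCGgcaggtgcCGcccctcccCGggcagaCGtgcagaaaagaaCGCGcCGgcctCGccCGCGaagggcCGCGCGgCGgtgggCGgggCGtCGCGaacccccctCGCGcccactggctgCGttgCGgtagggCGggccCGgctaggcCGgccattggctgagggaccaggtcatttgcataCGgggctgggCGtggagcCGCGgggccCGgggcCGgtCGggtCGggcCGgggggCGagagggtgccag

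The 3 starts differ in composition: MIR9-1HG has 24 CG dinucleotides and 67.7% G or C, MIR210HG 44 and 80.0%, and LINC01587 only 1 and 43.3%. MIR9-1HG is the host transcript of a microRNA of neural progenitors. Its gained region (chromosome 1, 156421581 to 156424630) was number 5338 with shCHD4#1 and 4813 with shCHD4#2, but a shScramble region ended 260 bp away. MIR210HG hosts the hypoxia-induced microRNA miR-210. Its region of 510 bp was number 12685 with shCHD4#1 and 8100 with shCHD4#2, with the nearest shScramble region at 2040 bp. Of the 3, LINC01587 stood farthest from control accessibility, 26560 bp from a shScramble region, and its region was number 11761 with shCHD4#1 and 4176 with shCHD4#2. Of the planned motifs, searched on both strands, the LINC01587 start held an AP-1 match (TGANTCA) and a SOX match (ACAAAG), and the other starts held only an E-box (CANNTG).

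Over the whole genome, the gained regions were no more intergenic than accessible regions in general. Intergenic places made up 42.2% (41.3 to 43.0) of the 13115 gained with both hairpins, against 42.7% of all merged places. The share was 47.1% (46.3 to 47.9) among the 13773 (10.6%) lost with both, that is in the shScramble list alone, and 36.7% (36.2 to 37.2) among the 43031 in all 3 lists. Of the 55658 intergenic places, 5530 (9.94%) were gained with both hairpins and 6487 (11.7%) were lost with both. The number gained was thus 0.852 times the number lost in intergenic DNA. It was 0.826 times inside genes and 2.25 times at gene ends. The order in intergenic DNA turned with some of the processing choices and not with others. With the best 80000 regions of each list, which evens the list lengths, there were 4669 gained and 9196 lost. With regions up to 500 bp apart merged there were 4689 gained and 3653 lost. With no opposing region allowed within 5 kb there were 3453 gained and 2607 lost. Both choices set a gained place against the shScramble list alone and a lost place against 2 lists, so lost places are removed more easily. The part of this in the turned order was not tested. A further 18080 intergenic places were listed with shCHD4#1 only and 2864 with shCHD4#2 only.

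By the authors' p, within each CHD4 list, the gained intergenic regions ranked behind intergenic regions in all 3 lists and ahead of those in that list alone. Their median stood at the 38.6% point of the shCHD4#1 list (quartiles 22.8 and 61.0) and at the 61.4% point of the shCHD4#2 list (40.5 and 80.1), where 0% is the lowest p. The shCHD4#1 list is the longer one, so a weak region stands at a lower percent point there, and the points of the 2 lists are not compared. For intergenic regions in all 3 lists the median stood at 24.1% with shCHD4#1 and 37.4% with shCHD4#2. It stood at 67.2% for intergenic regions with shCHD4#1 only and at 69.8% for those with shCHD4#2 only. These classes differ in how many lists a place must be in, so part of this order was fixed by the choice. The best 25% of the list held 28.9% of the gained regions with shCHD4#1 and 9.89% with shCHD4#2. Only 448 (8.10%) stood in the best 25% of both. The limit of 0.05 in the authors' p was met by 449 of the 5530 with shCHD4#1, by 151 with shCHD4#2 and by 114 (2.06%) with both. Over the whole lists it was met by 14673 of 122456 regions with shCHD4#1 and by 10943 of 82824 with shCHD4#2, which are larger shares. By the same limit, 18 of the intergenic regions lost with both remained, so the gained then outnumbered the lost. A lost place needs 1 list and a gained place 2, and the lost had a median at the 69.8% point of the shScramble list. The part of this in the turned order was not tested. Ranks with the 2 hairpins had a Spearman correlation of 0.50 over the 5530 regions and 0.65 over the 15791 in all 3 lists, a description over regions that share libraries and depth.

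**Figure D1:**
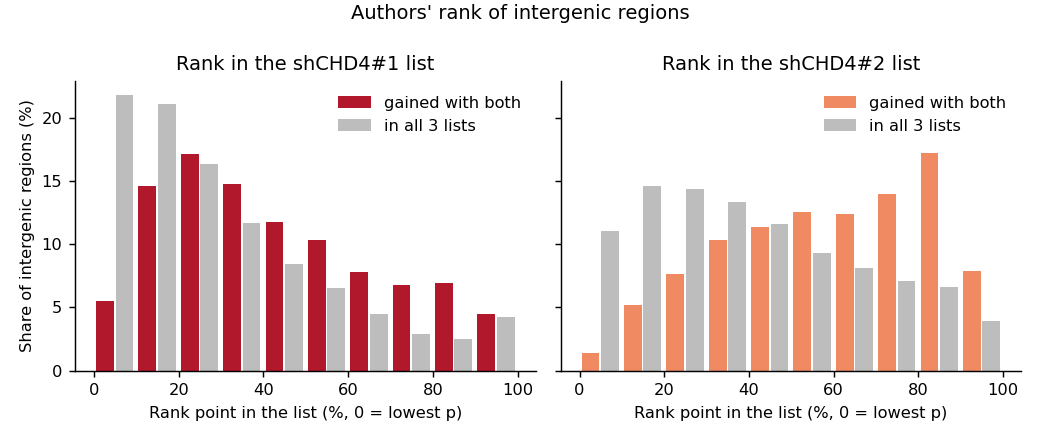
Share of intergenic regions (y axis, %) by their place in the shCHD4#1 list (left) and the shCHD4#2 list (right), in steps of 10% from the lowest authors' p; coloured bars are the 5530 regions gained with both CHD4 hairpins and grey bars the 15791 in all 3 lists. The best step held 5.50% of the gained regions with shCHD4#1 and 1.37% with shCHD4#2.

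Where both hairpins gave a region, they mostly marked the same stretch. In 4616 of the 5530 places each hairpin had exactly 1 region, with a median width of 1180 bp for shCHD4#1 and 880 bp for shCHD4#2. The shCHD4#1 region was wider in 3410 (73.9%) of them and the shCHD4#2 region in 1159. Their centres lay 165 bp apart in the median, and they shared a median of 760 bp (quartiles 550 and 990). The shared part was 60.7% of their joint span in the median and at least 50% of it in 3071 places. In 2069 places (44.8%) the shCHD4#2 region lay wholly within the shCHD4#1 region. Fewer than 100 bp were shared in 98 places (2.12%). The merged places had a median width of 1460 bp (quartiles 1080 and 2040), against 2310 bp for intergenic places in all 3 lists and 1370 bp for those lost with both. Only 70 were wider than 5 kb.

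Most gained intergenic regions stood apart from control accessibility, while a minority bordered on it. The nearest shScramble region lay 9060 bp away in the median (quartiles 2210 and 26830). It lay within 1 kb of 1002 regions (18.1%; 17.1 to 19.2) and more than 50 kb from 717 (13.0%; 12.1 to 13.9). For gained regions inside genes the median was 5960 bp, and for those at gene ends 2165 bp. For intergenic regions with shCHD4#1 only it was 10410 bp, and with shCHD4#2 only 5620 bp. The gained intergenic regions thus stood between these single-hairpin classes, and the distance is not particular to them. At the limits of the rule, 401 gained regions lay under 200 bp from a shScramble region, and 56 of these touched one without sharing a base. Just past it, 129 intergenic places in all 3 lists had a shScramble region that shared under 200 bp with a CHD4 hairpin region. On the side of the genes, 89 gained regions lay no more than 0.5 kb past the 1 kb window, and 118 regions with the same presence lay within the outer 0.5 kb of the window and were left out.

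Gained intergenic regions lay a median of 44494 bp from the nearest protein-coding gene (quartiles 13790 and 131024). The median was 44183 bp for intergenic regions lost with both, 35792 bp for those in all 3 lists and 54494 bp for those with shCHD4#1 only. Within 10 kb of a gene lay 1080 gained regions (19.5%), 2726 lay between 10 and 100 kb, and 1724 (31.2%; 30 to 32.4) lay farther away. Beyond 500 kb from any gene lay 342. Strand was known for the nearest gene of 4291 regions, and 52.4% (50.9 to 53.9) of these lay upstream of the gene's start, against 53.8% for lost regions and 52.2% for regions in all 3 lists.

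**Figure D2:**
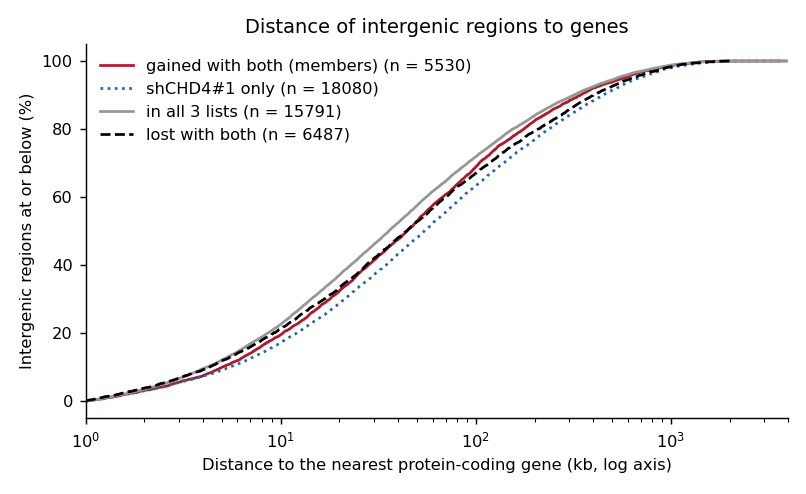
Cumulative share of intergenic regions (y axis, %) by distance to the nearest protein-coding gene (x axis, kb, log scale), for the 5530 gained with both CHD4 hairpins, the 18080 with shCHD4#1 only, the 15791 in all 3 lists and the 6487 lost with both. The curve of the gained regions runs close to that of the lost regions, with medians of 44494 and 44183 bp.

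The most remote gained region lay near the centromere of chromosome 1 (125181661 to 125184020), 3718531 bp from LINC02798, which RefSeq lists as protein-coding. A shScramble region lay 790 bp from it. The shCHD4#1 list covered 2360 bp there and the shCHD4#2 list 450 bp, and the placement of reads so near a centromere was not examined. The next most remote gained region lay 1947883 bp from PIK3C3, a lipid kinase of autophagy (chromosome 18, 40005701 to 40007350). This region was also far from control accessibility, with the nearest shScramble region at 357280 bp. It was number 13297 with shCHD4#1 and 10714 with shCHD4#2. The other 3 of the 5 most remote lay on chromosome 13, nearest to GPC5, a glypican, SPRY2, an inhibitor of receptor tyrosine kinase signalling, and SLITRK1, a synaptic adhesion protein. They stood 1832140, 1734634 and 1710734 bp from these genes.

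The best-ranked gained regions, judged by the worse of their 2 ranks, were spread over 7 chromosomes. The first, 2724 bp from the urotensin receptor gene UTS2R (chromosome 17, 82367121 to 82369040), was number 110 with shCHD4#1 and 572 with shCHD4#2, and a shScramble region stood 170 bp away. A region 4790 bp upstream of TMEM184B (chromosome 22, 38277801 to 38281580) was number 1748 with shCHD4#1 and 1240 with shCHD4#2. One downstream of XRN1, the cytoplasmic exonuclease for RNA (chromosome 3, 142283671 to 142286060), was number 1252 with shCHD4#1 and 2351 with shCHD4#2. Another 4 lay nearest to FAM53A, PPIAL4F, UBE2D4 and GOLGA6L9. PPIAL4F and GOLGA6L9 have near-identical copies, and the UBE2D4 region overlapped the pseudogene POLR2J4, so reads there are uncertain in their placement. The nearest shScramble region stood 1640 bp from the region at XRN1 and 5360 bp from that at TMEM184B.

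The widest gained places were wide in different ways. The widest spanned 21090 bp (chromosome 3, 195480441 to 195501530), 12897 bp from PPP1R2, a phosphatase inhibitor, and was chained from 2 shCHD4#1 and 4 shCHD4#2 regions. The others lay nearest to C8orf33 (18920 bp), PXDN, a matrix peroxidase (18730 bp), ADPRHL1 (12990 bp) and the histone gene H3-7 (12280 bp). At C8orf33 and ADPRHL1 the width came from shCHD4#1, and the shCHD4#2 list covered 1150 bp and 840 bp there. Each of the 5 had a rank past the 45% point of at least 1 CHD4 list.

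Of the 5530 gained intergenic regions, 3305 had no other within 50 kb. With 2225 of them (40.2%; 38.9 to 41.5), another gained intergenic region lay within 50 kb, against 43.5% (42.3 to 44.7) of the 6487 lost. The share rises with the number of regions in a class. In the class nearest in size, the 5518 intergenic places listed with shCHD4#1 and shScramble but not shCHD4#2, it was 35.4% (34.2 to 36.7). Chained at gaps of up to 50 kb, 634 chains held 2 and 266 chains held 3 or more, which together took in 957 regions (17.3%). The largest chains held 7 regions, and there were 6 of these.

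Of these 6, the chain with the shortest span lay upstream of RXRA, the retinoid X receptor alpha, the shared partner of many nuclear receptors. Over 51.0 kb (chromosome 9, 134271041 to 134322040) the lists held 10 regions with shCHD4#1, 10 with shCHD4#2 and 1 with shScramble. The rule itself places both CHD4 hairpins and no shScramble region at the 7 gained places of each chain, so most of such a contrast was fixed by the choice. The member nearest to the gene, 4414 bp away, was number 20597 with shCHD4#1 and 10927 with shCHD4#2. The other 6 were ranked lower, between 34640 and 122265 with shCHD4#1 and between 37309 and 75680 with shCHD4#2. Most of the chain was thus made of weakly ranked regions in both CHD4 lists.

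Of the other chains of 7, 3 lay on chromosome 20. Beside YTHDF1, a reader of N6-methyladenosine in RNA (63132981 to 63192290), the lists held 10 regions with shCHD4#1, 10 with shCHD4#2 and 3 with shScramble. In the stretch beyond BMP7, a bone morphogenetic protein (56925271 to 57039590), they held 15 with shCHD4#1, 9 with shCHD4#2 and 3 with shScramble. Between GATA5, an endoderm and heart transcription factor, and SLCO4A1, an organic anion transporter (62481261 to 62598190), they held 25 with shCHD4#1, 18 with shCHD4#2 and 8 with shScramble. The chain on chromosome 2 (111376981 to 111513180), had LOC124907867 as the nearest gene of 6 regions and ANAPC1, a subunit of the anaphase-promoting complex, 253050 bp from the last. It had 11 regions with shCHD4#1, 8 with shCHD4#2 and 2 with shScramble. On chromosome 5, between ARAP3 and the protocadherin PCDH1 (141696321 to 141884440), control accessibility was already dense, with 31 regions for shCHD4#1, 31 for shCHD4#2 and 25 for shScramble.

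**Figure D3:**
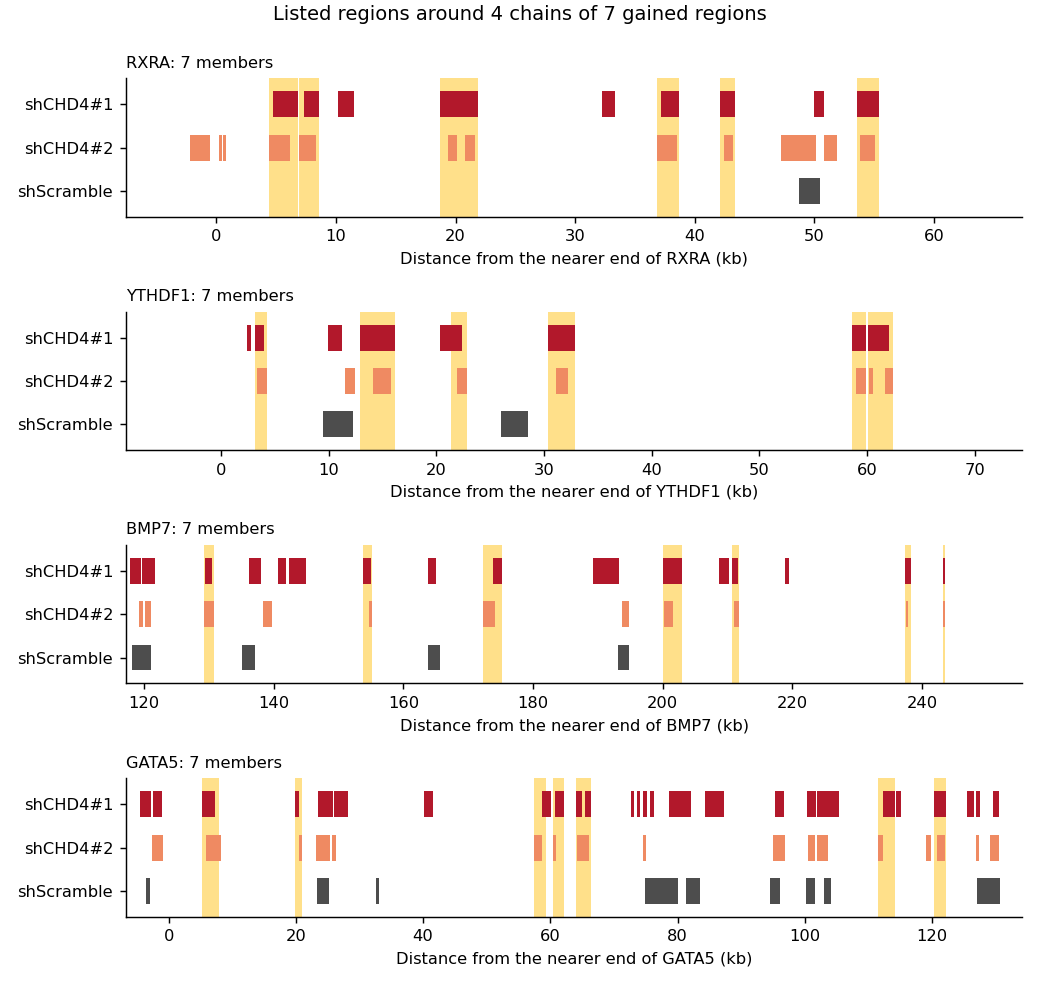
Listed regions with shCHD4#1 (top row), shCHD4#2 (middle row) and shScramble (bottom row) around the 4 chains of 7 gained intergenic regions with the shortest spans, by distance from the nearer end of the named gene (x axis, kb); blocks are regions and yellow bands the merged gained places, 7 in each map, some of which touch. Around the RXRA chain, the span holds 10 regions with shCHD4#1, 10 with shCHD4#2 and 1 with shScramble; the bands hold no shScramble region by the rule.

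Of 19974 protein-coding genes, 3474 (17.4%) were the nearest gene to at least 1 gained intergenic region, and 3807 were nearest to at least 1 lost intergenic region. Of the 3474 genes, 2346 were nearest to a single gained region, 661 to 2 and 467 to 3 or more. A gene with a long intergenic flank collects more regions of every kind, so the number lost is given beside the number gained. The gene nearest to a region need not be controlled by it.

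TMEM121, a membrane protein gene at the end of chromosome 14 (105526583 to 105530198), was nearest to the most, with 15 gained and 14 lost. Of its 15 gained regions, 14 lay within the span of the immunoglobulin heavy chain segments (105586937 to 106879844), which hold no gene of the protein-coding class. That span held 63 regions with shCHD4#1, 46 with shCHD4#2 and 50 with shScramble. The gains there thus came with about as many losses.

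TLE3, a Groucho corepressor (chromosome 15, 70047790 to 70097917), was nearest to 13 gained and 1 lost. The intergenic regions nearest to it numbered 74 with shCHD4#1, 59 with shCHD4#2 and 39 with shScramble. TSNARE1 (chromosome 8, 142212080 to 142407029) was nearest to 12 gained and 3 lost, with 48 regions for shCHD4#1, 38 for shCHD4#2 and 20 for shScramble. PREX1, a guanine nucleotide exchange factor for Rac (chromosome 20, 48624252 to 48888185), was nearest to 12 gained and 2 lost, with 40 regions for shCHD4#1, 38 for shCHD4#2 and 18 for shScramble. At these 3 genes both CHD4 lists exceeded the control list and gains far outnumbered losses. Genes here were named for their number of gained regions, and each such region adds to both CHD4 lists and not to shScramble. Part of the contrast was thus fixed by the choice, here and at the other genes named in this way. MYC, the growth-promoting transcription factor (chromosome 8, 127735434 to 127742951), showed another picture, with 11 gained and 17 lost, and with 138 regions for shCHD4#1, 135 for shCHD4#2 and 128 for shScramble.

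BCOR, a Polycomb corepressor on the X chromosome (40051246 to 40177277), was nearest to 10 gained and 3 lost, all of the gained beyond 100 kb, the closest at 103303 bp. Intergenic regions nearest to BCOR numbered 57 with shCHD4#1, 42 with shCHD4#2 and 30 with shScramble. Of the genes with 9 gained regions, MATN1, a cartilage matrix protein gene, had 1 lost, and its regions numbered 46 with shCHD4#1, 26 with shCHD4#2 and 14 with shScramble. XPNPEP1, an aminopeptidase gene, had 1 lost, and B3GAT1, which makes the HNK-1 epitope of neural and natural killer cells, had 3. LOC107984449 had 4 lost, TAFA5, a secreted brain protein gene, 6, and the neural adhesion gene NCAM2 12. With NCAM2, shCHD4#1 listed 76 intergenic regions, shCHD4#2 38 and shScramble 46, so that the 2 hairpins stood on either side of the control.

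Genes nearest to a gained intergenic region had newly covered ends slightly more often than other genes. The other genes take in those nearest to no listed intergenic region, since only 10520 of all 19974 genes were nearest to one. Both measures come from presence in the same 3 lists, so the difference is a description, and its cause was not tested. A gene end counted as gained when both CHD4 lists and not the shScramble list had a region within 1 kb of it, which held for 1333 of 19974 genes (6.67%). Among the 7424 genes with no end covered with shScramble, an end was gained at 307 of 1368 (22.4%; 20.3 to 24.7) that were nearest to a gained intergenic region and at 1026 of 6056 (16.9%; 16.0 to 17.9) that were not. Seen from the regions, 3022 (54.6%) had a nearest gene whose end was covered in all 3 lists, 514 (9.29%) one whose end was gained and 1243 (22.5%) one whose end was covered in none. Over all genes, an end was covered in all 3 lists at 57.1% and in none at 24.8%. Of 9 genes typical of Ewing sarcoma cells, 7 had a covered end in each list, among them NR0B1, NKX2-2 and CCND1, while CD99 and ADGRG2 had none. Of 11 genes typical of blood, liver, muscle, endothelium or epithelium, 7 had a covered end with shCHD4#1, 5 with shCHD4#2 and 6 with shScramble, so covered ends do not by themselves mark the cell type.

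The 12 gene lists were compared by how many of their genes were nearest to a gained intergenic region, beside 17.4% of all genes, and by the share of their nearest intergenic regions that were gained or lost, beside 9.94% and 11.7%. The first measure rises with the number of intergenic regions around a gene. The second is a share of those regions, and it also differs with the chromosome and the distance from its end. Of 50 developmental transcription factors, 29 (58.0%; 44.2 to 70.6) were nearest to a gained region and 31 to a lost one. Their 630 intergenic regions included 59 gained (9.37%) and 79 lost (12.5%), which is near the share over all genes. TFAP2A, a neural crest factor, was nearest to 6 gained and 7 lost, with 51 regions for shCHD4#1, 28 for shCHD4#2 and 33 for shScramble. BARX1, a stomach homeobox factor, was nearest to 4 gained and 1 lost, with 14 regions for shCHD4#1, 11 for shCHD4#2 and 5 for shScramble.

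WNT ligands and receptors had more gained than lost regions, as did several other lists, all from small counts. Of 31 genes, 12 (38.7%; 23.7 to 56.2) were nearest to a gained region and 5 to a lost one, and of their 119 intergenic regions 18 (15.1%) were gained and 6 (5.04%) lost. WNT7B, a Wnt ligand, was nearest to 2 gained and 0 lost, and the receptor FZD1 to 2 gained and 2 lost. Around WNT7B lay 8 intergenic regions with shCHD4#1, 6 with shCHD4#2 and 7 with shScramble. Around FZD1 lay 15 with shCHD4#1, 7 with shCHD4#2 and 8 with shScramble. Germline and meiosis genes had 7 gained (15.9%) and 3 lost (6.82%) of 44 regions, with STRA8, which starts meiosis, and CTCFL, a testis paralogue of CTCF, nearest to 1 gained each. Liver and gut genes had 8 gained (14%) and 4 lost (7.02%) of 57, with APOB, the main protein of low-density lipoprotein, nearest to 2 gained. Around APOB, shCHD4#1 listed 4 intergenic regions, shCHD4#2 listed 5 and shScramble 0. Neuronal and synaptic genes had 19 gained (11.1%) and 16 lost (9.36%) of 171, with 13 of 30 genes nearest to a gained region. RBFOX3 and CNTNAP2 were nearest to 2 each and to no lost region. Around RBFOX3 lay 3 intergenic regions with shCHD4#1, 3 with shCHD4#2 and 1 with shScramble. Around CNTNAP2 lay 17 with shCHD4#1, 5 with shCHD4#2 and 8 with shScramble.

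Fusion-activated genes had 19 gained (10.0%) and 18 lost (9.47%) of 190 regions, with 8 of 26 genes nearest to a gained one. BCL11B, a zinc finger factor highly expressed in this tumour, was nearest to 5 gained and 1 lost, with 32 intergenic regions for shCHD4#1, 23 for shCHD4#2 and 12 for shScramble. VRK1, a nuclear kinase, was nearest to 5 gained and 3 lost, with 42 intergenic regions for shCHD4#1, 21 for shCHD4#2 and 21 for shScramble. Fusion-repressed and mesenchymal genes had 14 gained (7.73%) and 19 lost (10.5%) of 181, with 9 of 26 genes nearest to a gained region, ZEB2 to 4 gained and 4 lost and IGFBP3 to 2 gained and 1 lost. Skeletal and cardiac muscle genes had 3 gained (4.29%) and 2 lost (2.86%) of 70, with ACTC1, cardiac actin, and MYL2, a cardiac myosin light chain, nearest to 1 gained each. Haematopoietic and lymphoid genes had 4 gained (6.06%) and 5 lost (7.58%) of 66, with the B cell factor PAX5 and the integrin gene ITGAX nearest to 1 gained each. For cell cycle and replication genes 6 (6.38%) were gained and 5 (5.32%) lost of 94, for apoptosis and p53 target genes 7 (9.21%) and 11 (14.5%) of 76, and for the 15 NuRD subunits 1 and 2 of 15 regions. The proliferation marker MKI67 was nearest to 3 gained and 3 lost and the replication helicase subunit MCM5 to 1 gained. BAK1, a pore-forming apoptosis effector, was nearest to 4 gained and 0 lost, and the death receptor FAS to 1 gained. Around BAK1 lay 13 intergenic regions with shCHD4#1, 6 with shCHD4#2 and 7 with shScramble. The lone gained region among the NuRD genes lay 20795 bp from MBD2, the methyl-CpG-binding subunit. Counts this small leave each share imprecise.

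Starts of lncRNA genes lay in gained intergenic regions more often than in lost ones. Starts came from the RefSeq promoter table for chromosomes other than 8, which was not used here for this measure. A gained region covered a start in 163 of 5247 cases (3.11%; 2.67 to 3.61), against 60 of 6009 (0.999%; 0.777 to 1.28) of the lost and 747 of 14822 (5.04%; 4.70 to 5.40) of those in all 3 lists. The share was 1.54% (1.37 to 1.74) with shCHD4#1 only and 1.74% (1.31 to 2.31) with shCHD4#2 only. In places held by shScramble and 1 CHD4 list, it was 2.16% (1.5 to 3.1) with shCHD4#2 and 2.08% (1.72 to 2.51) with shCHD4#1. A gained place needs regions of 2 lists and a lost place of only 1, so the 2 classes are not alike in this. A wider region covers a start more easily; the medians were 1460 bp for gained and 1370 bp for lost regions. Gained over lost was 2.72 at lncRNA starts, beside 2.25 at protein-coding gene ends and 0.852 over all intergenic places. Seen from the genes, 180 of 7258 intergenic lncRNA starts (2.48%), of 168 genes, lay in a gained region, 65 in a lost region, 985 in a region of all 3 lists and 5530 in none.

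Gained regions at lncRNA starts had a median at the 38.5% point with shCHD4#1, against 38.6% for all gained intergenic regions. With shCHD4#2 it stood at 53.2%, against 61.4%. The limit of 0.05 was met in both lists by 8 of the 163, beside 114 (2.06%) of all 5530 gained intergenic regions. Of the 163, 31 (19.0%) had a shScramble region within 1 kb. The best-ranked was HLA-F-AS1 in the major histocompatibility complex, number 6607 with shCHD4#1 and 4779 with shCHD4#2, only 100 bp from a shScramble region. HCG27, near POU5F1, was number 8289 with shCHD4#1 and 8300 with shCHD4#2. Starts of MIR1915HG, MIR31HG, which hosts the microRNA miR-31, HOXB-AS4 of the HOXB cluster and the prostate transcript PCGEM1 were also covered. Their regions were ranked lower, between 31915 and 87714 with shCHD4#1 and between 30010 and 51662 with shCHD4#2.

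The composition of the newly covered lncRNA starts was close to that of starts accessible in all 3 lists. Over the 300 bases, the median was 54.7% G or C (quartiles 47.0 and 62.3) in gained regions, 50% in lost regions, 54.7% in regions of all 3 lists and 44.7% where no list had a region. At least 15 CG dinucleotides were held by 46 of 180 starts in gained regions (25.6%; 19.7 to 32.4), by 8 of 65 in lost regions (12.3%; 6.37 to 22.5), by 28.8% in regions of all 3 lists and by 9.29% in no region. The share was 29.6% (19.1 to 42.8) of 54 starts with shCHD4#2 only and 10.2% (7.18 to 14.2) of 285 with shCHD4#1 only. Among the classes read here, CG-rich starts thus went with presence in the shCHD4#2 list. Composition was not read for places of shScramble and 1 CHD4 list, and the part of this in the result was not tested. Motif shares at starts in gained regions had wide intervals, and for AP-1, TEAD, SOX, GATA and CTCF these held the share of starts in all 3 lists. AP-1 (TGANTCA) was matched in 9.44% of the 180, against 10.6% of starts in all 3 lists and 7.68% of all 34961 promoters in the table. The TEAD motif (GGAATG) was matched in 17.2% of starts in gained regions, 18.1% of starts in all 3 lists and 14% of all promoters. The SOX motif (ACAAAG) was matched in 20.6% of starts in gained regions, 20.1% of starts in all 3 lists and 16.1% of all promoters. The GATA motif (AGATAA) was matched in 7.78% of starts in gained regions, 10.7% of starts in all 3 lists and 10.3% of all promoters. E-boxes (CANNTG) were matched in 83.9% (77.8 to 88.5) of starts in gained regions, 77.3% (74.5 to 79.8) of starts in all 3 lists and 68.7% of all promoters. The CTCF core motif was matched in 2.22% of starts in gained regions, 2.03% of starts in all 3 lists and 1.06% of all promoters. All promoters include those of protein-coding genes. Over all 7258 intergenic lncRNA starts the shares were 12.1% for AP-1, 18.6% for TEAD, 22.9% for SOX and 17.1% for GATA. They were 78.5% for E-boxes and 0.799% for CTCF. Of these 6, only GATA and CTCF fell outside the interval of starts in gained regions, 4.69 to 12.6 for GATA and 0.867 to 5.57 for CTCF. A GGAA repeat of 4 units was found in 0 of 180 and in 7 of the 34961, and windows at starts say nothing of repeats elsewhere in the regions.

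Bodies of lncRNA genes were overlapped by 1504 gained regions (27.2%; 26.0 to 28.4), by 23.7% (22.7 to 24.7) of lost regions and by 28.4% (27.7 to 29.1) of regions in all 3 lists. A gained region overlapped 1358 lncRNA genes, and 44 of these held 3 or more. DELEC1 (chromosome 9, 115141818 to 115402644) and MIR4435-2HG (chromosome 2, 111195866 to 111495161) held 5 each. DELEC1 had 19 regions with shCHD4#1, 15 with shCHD4#2 and 12 with shScramble, and MIR4435-2HG had 13 with shCHD4#1, 10 with shCHD4#2 and 9 with shScramble. The 8 lncRNAs with 4 gained regions were EPCAM-DT, LINC01811, LOC105369890, LOC105371750, LOC107987083, MIR100HG, SOX2-OT and VSTM2B-DT. MIR100HG, the host of miR-100 and let-7a-2, had 14 regions with shCHD4#1, 11 with shCHD4#2 and 6 with shScramble. SOX2-OT, which surrounds the stem cell factor gene SOX2, had 24 with shCHD4#1, 17 with shCHD4#2 and 18 with shScramble, so that only shCHD4#1 listed more than the control.

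Chromosomes differed in the share of their intergenic regions that was gained. The share was highest on chromosomes 19 (13.5%; 11.7 to 15.4), 20 (13.4%; 11.9 to 15) and 16 (12.7%; 11.1 to 14.5), and lowest on chromosomes 4 (7.93%; 6.93 to 9.07), 6 (8.06%; 7.27 to 8.92) and 13 (8.10%; 6.95 to 9.42). The lost share was 9.74% on chromosome 20, 16.3% on chromosome 13 and 11.9% on chromosome 6, beside 11.7% over all chromosomes. On chromosome 8 the gained share was 8.49% and the lost share 14.3%. On chromosome 20 there were 240 gained and 175 lost, and on chromosome 13 there were 152 gained and 306 lost. Over the 23 chromosomes, the gained share had a Spearman correlation of 0.70 with the number of protein-coding genes per Mb and the lost share one of -0.68, given as a description, since chromosomes share the libraries and differ in base composition.

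**Figure D4:**
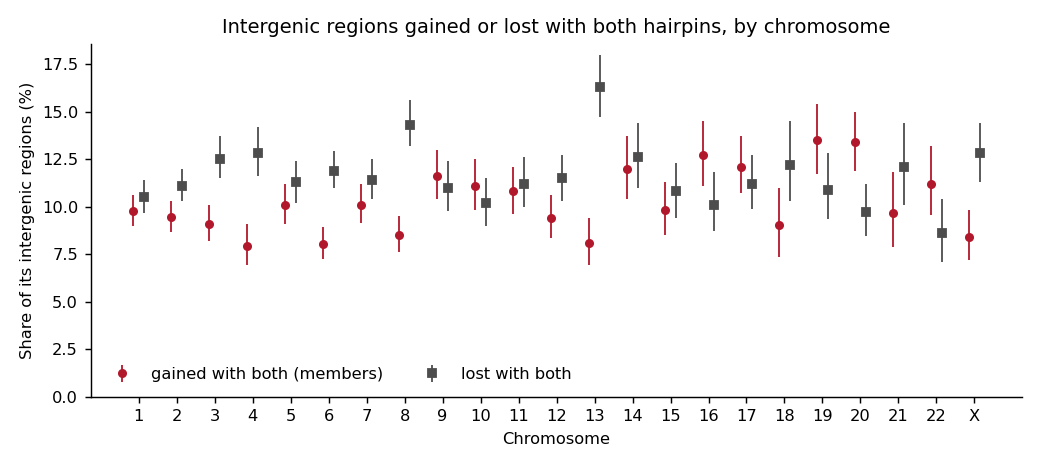
Share of the intergenic regions of each chromosome (y axis, %) that were gained with both CHD4 hairpins (red circles) or lost with both (grey squares), with 95% Wilson intervals. On chromosome 20 the gained share is 13.4% and the lost share 9.74%, and on chromosome 13 they are 8.10% and 16.3%.

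Gained intergenic regions were denser towards chromosome ends. In the outer 2 Mb, 393 of 2327 intergenic regions were gained (16.9%; 15.4 to 18.5) and 182 were lost (7.82%; 6.80 to 8.98). Beyond 40 Mb from an end, 8.61% (8.24 to 8.99) were gained and 12.3% (11.9 to 12.8) were lost. The gained share was lower with each step in between apart from a small rise between the steps from 10 to 20 Mb (9.50%) and 20 to 40 Mb (9.83%). Put the other way, 806 of the gained regions (14.6%; 13.7 to 15.5) lay in the outer 5 Mb, against 7.49% (6.88 to 8.16) of the lost and 10.2% (9.77 to 10.7) of those in all 3 lists. Gained regions inside genes (17.7%) and at gene ends (22%) lay there more often still. The share of regions with shCHD4#2 only showed the same slope, 7.48% in the outer 2 Mb and 4.27% beyond 40 Mb, while that with shCHD4#1 only was 30% in the outer 2 Mb and 34.1% beyond 40 Mb. Regions in all 3 lists, which are also in the shCHD4#2 list, had little slope, 28.6% in the outer 2 Mb and 27.5% beyond 40 Mb. The rise towards the ends thus went with presence in the shCHD4#2 list together with absence from the shScramble list. The part of either in the result was not tested.

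**Figure D5:**
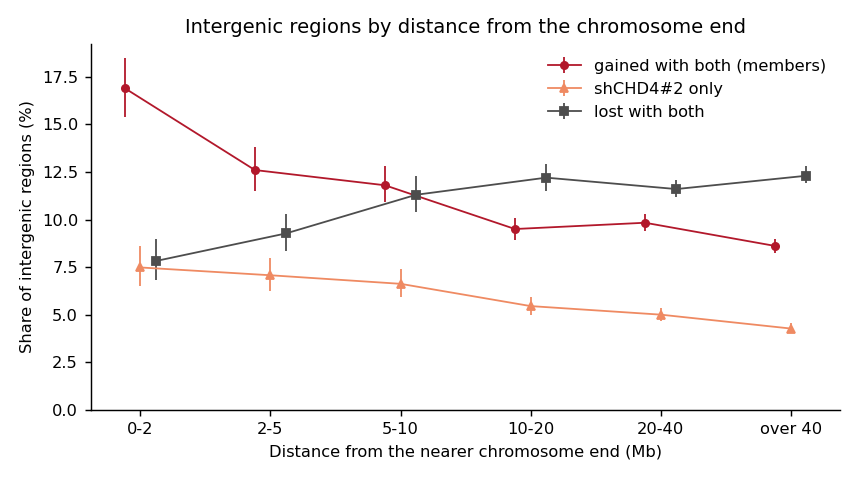
Share of intergenic regions (y axis, %) gained with both CHD4 hairpins (red circles), listed with shCHD4#2 only (orange triangles) or lost with both (grey squares), by distance from the nearer chromosome end (x axis, Mb), with 95% Wilson intervals. The gained share is 16.9% in the outer 2 Mb and 8.61% beyond 40 Mb.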

How the data were processed

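The 9 ATAC-seq libraries are represented by 3 deposited lists of regions, each taken as the combined list of its group; GEO files each under replicate 1. Tools named in the submitters' processing notes are Trimmomatic 0.36 and FastQC 0.11.7 for reads, BWA, SAMtools 1.9 and deepTools 3.2.1; the notes name the builds GRCh38 and dm6. The sources used here do not give the peak caller, a Tn5 shift or how the spike-in was used. For each region the authors deposited 2 scores with no stated unit, a p-value and a q-value. Rows are sorted by the p-value, and a rank counts all rows of chromosomes 1 to 22 and X. The deposited values served only to filter and rank within a list. A deeper library could list more weak regions, and read depth is unknown.

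Regions over 20 kb or with a second score below 0 were left out (413 with shCHD4#1, 417 with shCHD4#2, 416 with shScramble). The rest were merged where at least 1 bp was shared (Python 3.11.15, pandas 2.3.3, numpy 2.4.6). Genes were the 19974 protein-coding genes of RefSeq GRCh38.p14 on these chromosomes. Sequences and lncRNA starts came from RefSeq tables of that release, without chromosome 8. Distances run edge to edge, and chromosome ends were set by the last gene or region. Lists of groups were not tested against each other, since each group had only 1. Patterns, classes and distances were tested on simulated data, with 764 of 764 recovered each.

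The regions, gene lists and comparisons were chosen with earlier results of these data known. Named were the 12 genes nearest to the most gained regions, up to 2 genes per gene list, the 8 best-ranked, 5 widest and 5 most remote regions, the chains with the most gained regions, ties kept, the 10 lncRNAs with the most gained regions and microRNA genes in a gained region. Some genes that this rule names are not reported here. Other named lncRNA starts were chosen after their values were seen. Motifs planned for whole regions were searched only at lncRNA starts, because no genome was used here. Alternatives covered overlap, merging, p limit, list length, distance to opposing regions, dropped regions and gene definition; applying them to lncRNA starts and to lost regions near chromosome ends was added after seeing the data.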

Additional observations from a re-analysis of the deposited data

How the results depend on the processing

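Over 10 results and their alternatives, 46 values stayed within 1.5 times the reported count, or within the 95% interval of the reported share or median, and 35 did not; each alternative selects other regions by its construction, and further causes were not tested. With regions up to 500 bp apart merged, 3653 intergenic regions were lost, the intergenic share of gained regions was 46.0%, the median distance to a gene 51031 bp, the share within 50 kb of another gained region 33.7%, and the outer 5 Mb held 12.7% of the gained and 6.82% of the lost. With an authors' p of 0.05 or less required, 114 were gained and 18 lost, and these values were 37.7%, 30527 bp, 4.39%, 21.9% and 5.56%; non-coding genes were overlapped by 36.0% of the gained, and lncRNA starts by 7.14% of the gained and 5.88% of the lost. With no opposing region within 5 kb, 3453 were gained and 2607 lost, and the values were 48.2%, 59676 bp, 28.7%, 12.4% and 5.45%, with 0.75% of the lost over an lncRNA start. The best 80000 regions of each list gave 4669 gained and 9196 lost, and 34.2% within 50 kb. A gene window of 5 kb gave an intergenic share of 38.0%, a median of 54118 bp and 13.4% in the outer 5 Mb. Outside genes of every type, 3620 were gained, 27.6% of all gained, with 33.3% within 50 kb; no value over non-coding genes exists there. The outer 2 Mb held 7.11% of the gained and 2.81% of the lost, and the outer 10 Mb 24.0% and 15.2%. The larger share of gained than lost regions in the outer 5 Mb and over lncRNA starts held in each alternative that gave both values, but at a p of 0.05 both rest on at most 18 lost regions, with intervals of 0.988 to 25.8% for the outer 5 Mb and 1.05 to 27% for lncRNA starts that overlap those of the gained. No paired analysis was possible because each group has 1 list, and for the same reason no replicate was left out in turn. Depth limits what absence from a list means, since a weak region may be missed.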

Other observations

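Transfer RNA genes were overlapped by 9 gained regions (0.163%; 0.0856 to 0.309), 0 lost regions and 147 regions of all 3 lists (0.931%; 0.793 to 1.09). Genes of snRNAs or snoRNAs were overlapped by 4 gained, 9 lost and 38 regions of all 3 lists. Pseudogenes were overlapped by 249 gained regions (4.50%; 3.99 to 5.08), 228 lost regions (3.51%; 3.09 to 3.99) and 693 of all 3 lists (4.39%; 4.08 to 4.72).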
